A study of Mus musculus with 12 samples.

Results

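The Hox genes of primary mouse embryonic fibroblasts (MEFs) were followed across 12 microarrays that compare cells lacking the acetyltransferases CBP and p300 with wild-type cells, with and without an iron chelator. Members were all genes whose symbol is Hoxa, Hoxb, Hoxc or Hoxd followed by a number and that had a probe set assigned to 1 symbol, and the probe set of highest mean over the 12 arrays stood for each gene. The rule found 34 Hox genes, with 42 probe sets between them, among 17097 genes measured. The other genes among the 39 of the mouse gene table were not analysed here.

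There were 4 groups of 3 arrays. The first was CBP/p300 dKO MEFs (homozygous for conditional alleles of both genes) in 2,2'-dipyridyl (DP, an iron chelator that stabilizes hypoxia-inducible factors), the next dKO MEFs in ethanol, then wild-type MEFs in DP and wild-type MEFs in ethanol. Cells of both genotypes were C57Bl/6 x 129Sv F1 MEFs from e14.5 embryos at passage 4, and both received adenovirus expressing Cre recombinase at a multiplicity of infection of 100, so the virus is common to all arrays. They were kept 16 h with virus and then 48 h at 3% oxygen, moved to normoxia for 24 h, and given 100 µM DP or ethanol for 3 h. The dKO MEFs were lines 1, 5 and 6 and the wild-type MEFs lines 3, 4 and 5, and each line gave 1 dish per treatment. The labels do not say that a line came from 1 embryo, and line 5 of dKO and line 5 of wild type are different cells, so p-values measure the spread between these dishes. With mean ± SD below, n is 3 arrays.

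Hox genes encode homeodomain transcription factors that lie in 4 clusters, and their order along a cluster matches the order in which they are expressed from head to tail. Genes with the same number in different clusters are paralogs and often act together. Fibroblasts keep in culture a Hox pattern that reflects the body site they came from, so that a MEF culture, made from a mixture of embryonic tissues, carries a mixed pattern. Polycomb proteins keep Hox genes silent and Trithorax proteins keep them active.

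All values are log2 probe set summaries, on which a difference of 1 is a factor of 2. The median probe set of an array was at 3.86 to 3.98 log2, and 95% of the blank control probe sets of an array lay below a level of 3.28 to 3.54. The ethanol arrays of dKO line 1 (mean r 0.9856) and wild-type line 5 (mean r 0.9885) correlated least with the rest of their groups. They are called the deviating arrays below, although the ethanol array of dKO line 5 was close to the latter (mean r 0.9891). Crebbp, which encodes CBP, averaged 7.41 ± 0.35 log2 in dKO ethanol arrays and 8.27 ± 0.17 in wild-type ethanol arrays. The difference was −0.85 (adjusted p = 0.000992, limma), and −0.76 under DP (adjusted p = 0.0022). The sources used here do not say whether its probes fall in the removed exons, and Ep300, the gene of p300, was not analysed here. Of 14 fibroblast markers 12 lay above the blank controls in all 4 groups and none was near them in all 4, so the labelled cell type has its markers. However, 13 of the 14 were lower in dKO ethanol arrays, where their summed level was 13.8 to 14.1 log2, against 15.3 in wild-type ethanol arrays. Summed skeletal muscle markers were also lower, at 8.78 to 9.72 log2 in dKO arrays and 11.5 to 11.9 in wild-type arrays. Of 8 muscle markers 4 were called lower in ethanol and 2 were near the blank controls throughout. Summed cartilage markers reached 6.39 to 6.87 log2 in dKO arrays and 7.43 to 8.15 in wild-type arrays. Of 7 cartilage markers 3 were called lower in ethanol and 1 was near the blank controls throughout. Of 8 epithelial markers 5 were lower, of 6 neural markers 1 was lower, of 7 macrophage markers 2 were higher and 2 lower, and of 7 endothelial and 5 erythroid markers none was called (limma, ethanol), while of all genes 19.5% were higher and 14.1% lower. The part of these marker differences in the Hox differences was not tested. In RNA from whole dishes, fewer cells of a type and less RNA per cell cannot be told apart. Embryo sex went with genotype: Xist, expressed from the inactive X chromosome, read 3.94 to 5.32 log2 in dKO ethanol arrays and 10.3 to 10.6 in wild-type ethanol arrays, and the Y-linked Eif2s3y 7.08 to 8.35 in dKO ethanol arrays and 2.49 to 3.06 in wild-type ethanol arrays. All 4 sex-linked genes measured were called, so sex and genotype cannot be told apart. The actin control probe sets differed between 3′ and 5′ ends by 0.40 to 0.60 log2 in dKO arrays and by 0.23 to 0.38 in wild-type arrays. Those of Gapdh differed by 0.10 to 0.21 in dKO arrays and by −0.03 to 0.17 in wild-type arrays, ranges that overlap. Such differences are a sign of RNA or labelling quality whose part was not tested.

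Most measured Hox genes gave signal. Cluster A lies on chromosome 6 (52155367 to 52260880 in GRCm38.p6) and had 9 of its 11 genes measured, all above the blank controls in every group. Cluster B lies on chromosome 11 (96194316 to 96368254) and had all 10 genes measured, 7 of them above the blank controls in every group. Cluster C lies on chromosome 15 (102921131 to 103036856) and had 6 of 9 measured, and all 6 were above the controls. Cluster D lies on chromosome 2 (74668225 to 74765142) and had all 9 genes measured, 6 of them above the controls in every group. Over the clusters 28 of 34 were above the blank controls in all 4 groups, and 3, Hoxb1, Hoxd1 and Hoxd12, were near them in all 4. A change of a gene near the controls is understated. Several transcribed spans overlap: that of Hoxa3 covers Hoxa4 and Hoxa5, Hoxb3 covers Hoxb4, Hoxd3 covers Hoxd4, and Hoxd10 overlaps Hoxd11, so signal from such neighbours cannot be told apart where a probe set lies in shared sequence.

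With ethanol, Hox genes differed between genotypes in both directions. Of 34 members 16 (47.1%) passed an adjusted p of 0.05 in limma, against 33.6% of all genes. In dKO MEFs 7 rose (Hoxa4, Hoxa5, Hoxb9, Hoxd4, Hoxd8, Hoxd9 and Hoxd13), where 19.5% of all genes rose, and 9 fell (Hoxa2, Hoxa3, Hoxa11, Hoxb2, Hoxb3, Hoxb8, Hoxc5, Hoxc8 and Hoxc9), where 14.1% of all genes fell. Cyclic loess scaling gave 5 higher and 10 lower. At an unadjusted p under 0.05 there were 17 members (50%), against 41.0% of all genes. The median Hox difference was −0.06 log2, beside −0.01 over all genes. It was −0.19 with array weights, −0.17 without dKO line 1, −0.11 without wild-type line 3, −0.02 without wild-type line 5, −0.04 without dKO line 5 or dKO line 6, and 0.04 without the dimmest 40% of genes. Without the ethanol array of wild-type line 4, 10 members were called. Hoxa9 passed without the ethanol array of dKO line 1 (0.53 log2, adjusted p = 0.0285, limma) and Hoxa10 without that of wild-type line 3 (−0.43, adjusted p = 0.028).

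By cluster, all 4 members called in cluster D were higher in dKO MEFs and all 3 called in cluster C were lower, while cluster A had 2 higher and 3 lower and cluster B 1 higher and 3 lower. The anterior genes, paralog groups 1 to 3, were all 7 below 0 (6 of 7 with cyclic loess scaling, without the 2 deviating arrays, without dKO line 5 or without wild-type line 5), with a median difference of −0.53 log2, and 4 of them were called lower. The anterior median was −0.23 with the mean of all probe sets and −0.63 with cyclic loess. Of the 7, Hoxb1 (−0.06) and Hoxd1 (−0.12) were near the blank controls in all 4 groups. Without the dimmest 40% of genes 3 anterior genes remained, all 3 below 0. The central genes, groups 4 to 8, had 4 higher and 3 lower among 13, with a median of 0.04. That median turned to −0.27 with array weights, −0.13 with cyclic loess, −0.10 without the 2 deviating arrays, −0.17 without dKO line 1, −0.11 without wild-type line 3 and −0.0043 without dKO line 5, and was 0.21 without dKO line 6, so it has no settled direction. The posterior genes, groups 9 to 13, had 3 higher and 2 lower among 14, with a median of 0.10 (0.06 to 0.28 over the settings with all 14). These medians stand beside −0.01 for all genes, and no test of cluster or position was made. Under DP the anterior median was −0.41 and 6 of 7 were below 0 (5 of 7 with cyclic loess, median centring or array weights, and without dKO line 1 or wild-type line 5). The central median under DP was 0.01 (−0.11 with cyclic loess). The posterior median turned to −0.08 under DP, with 5 genes above and 9 below 0, 3 called higher and 4 called lower. The median of cluster D was 0.39 in ethanol and −0.0027 in DP, where 3 of its genes were called higher and 1 lower.

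**Figure D1:**
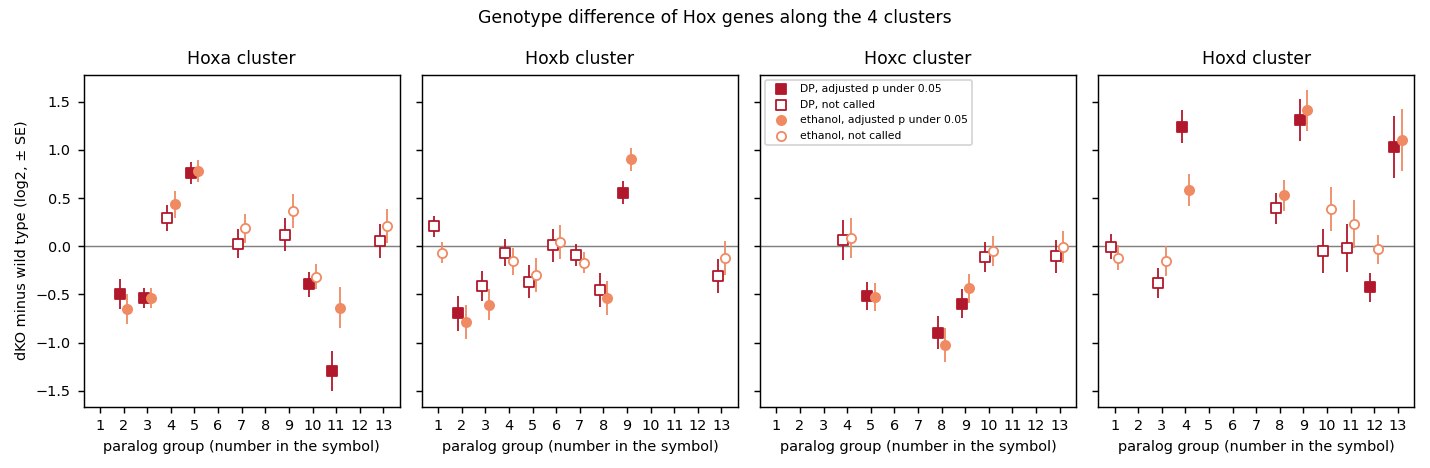
Difference in log2 value, dKO minus wild type, of each measured Hox gene (points, ± SE from limma) against its paralog group, 1 panel per cluster, with DP as squares and ethanol as circles, filled where adjusted p is under 0.05. Groups 2 and 3 of clusters A and B lie below 0, cluster C has no filled point above 0, and Hoxd4, Hoxd8, Hoxd9 and Hoxd13 lie above 0.

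Cluster D held the members that rose most. Hoxd9, a posterior gene that acts with its group 9 paralogs in the proximal forelimb and the trunk, read 7.85, 7.39 and 7.39 log2 in the ethanol dishes of dKO lines 1, 5 and 6, against 6.00, 5.82 and 6.58 in those of wild-type lines 3, 4 and 5. In DP it read 7.06, 6.82 and 7.35 in the dKO dishes, against 5.79, 5.47 and 6.03 in the wild-type dishes. All 6 dKO arrays lay above all 6 wild-type arrays. The difference was 1.41 ± 0.21 log2, or 2.66-fold (SE, adjusted p = 0.000207, limma) in ethanol and 1.31 in DP (adjusted p = 0.000365). Hoxd13, the most posterior gene of its cluster and a regulator of digits and genitalia, read 8.04, 8.10 and 8.94 log2 in dKO ethanol dishes, against 7.85, 6.90 and 7.04 in wild-type ethanol dishes. In DP its values were 7.82, 8.05 and 8.67 in dKO dishes and 7.58, 6.68 and 7.18 in wild-type dishes. The groups did not overlap within a treatment, but the lowest dKO value of 7.82 was below the highest wild-type value of 7.85. Hoxd13 was higher by 1.103 ± 0.322 log2 in ethanol (adjusted p = 0.0177, limma) and by 1.03 in DP (adjusted p = 0.0244), the largest standard error of any member. Its call was lost in ethanol without the array of dKO line 6, wild-type line 4 or wild-type line 5 (adjusted p = 0.0873, 0.0741 and 0.0565, limma). In DP the same lines mattered, with adjusted p = 0.11, 0.109 and 0.0593. Cyclic loess gave adjusted p = 0.0543 in ethanol and 0.063 in DP, the mean of its probe sets 0.122 in DP, and a dimmer probe set of Hoxd13 differed by 0.34 in ethanol and 0.07 in DP, neither called.

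Hoxd4, which helps to pattern the neck vertebrae, read 5.32, 5.10 and 5.26 log2 in dKO ethanol dishes and 4.47, 4.42 and 5.03 in wild-type ethanol dishes. In DP it reached 5.69, 5.57 and 5.28 in dKO dishes, against 4.11, 4.51 and 4.20 in wild-type dishes. All 6 dKO arrays lay above all 6 wild-type arrays. Its difference was 0.59 ± 0.17 log2 in ethanol (adjusted p = 0.0169, limma) and 1.24 in DP (adjusted p = 8.2e-05). The ethanol call was lost without the array of dKO line 6, wild-type line 3 or wild-type line 4 (adjusted p = 0.0522, 0.0692 and 0.0738, limma). Hoxd8, a central gene, read 7.50, 7.40 and 7.35 in dKO ethanol dishes and 6.55, 6.85 and 7.27 in wild-type ethanol dishes, where the value of 7.27 belongs to line 5, one of the deviating arrays. It was higher by 0.53 ± 0.16 log2 (adjusted p = 0.0226, limma), but not past the threshold in DP, at 0.39 (adjusted p = 0.0798). The ethanol call was lost without dKO line 1, wild-type line 3 or wild-type line 4 (adjusted p = 0.0558, 0.101 and 0.062) and with cyclic loess (0.149) or only the arrays compared (0.0681), while its other probe set passed in both treatments, at 0.64 in ethanol (adjusted p = 0.00988) and 0.66 in DP (adjusted p = 0.00812). The other posterior genes of the cluster did not pass in ethanol: Hoxd10 differed by 0.39 and Hoxd11 by 0.24 log2, and array weights called both (adjusted p = 0.00832 and 0.038). Hoxd12 was called in DP only, at −0.42 (adjusted p = 0.044, limma), but both its group means, 2.78 ± 0.13 in dKO DP arrays and 3.20 ± 0.23 in wild-type DP arrays, were near the blank controls. That call was lost without dKO line 5 or 6 (adjusted p = 0.132 and 0.113) and without wild-type line 3 or 4 (adjusted p = 0.184 and 0.054). Both other scalings also lost it, at 0.0946 with cyclic loess and 0.102 with median centring.

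Promoter sequences are shown for the 4 cluster D genes that rose, and for Hoxa2 as a member that fell with the most CCAAT boxes. Each runs from 250 bases before to 50 bases after the annotated start, 5′ to 3′ on the gene's strand, from RefSeq on GRCm38.p6, where 21 of the 34 members had an entry, 23 promoters in all. Capitals mark CCAAT, the TATA box letters TATAAA and the CRE core TGACG on either strand, where adjacent matches can overlap. Hoxd13 lies at chr2:74667975-74668274 (+), Hoxd9 at chr2:74697513-74697812 (+), Hoxd8 at chr2:74704365-74704664 (+), Hoxd4 at chr2:74721728-74722027 (+) and Hoxa2 at chr6:52164782-52165081 (−).
Hoxd13: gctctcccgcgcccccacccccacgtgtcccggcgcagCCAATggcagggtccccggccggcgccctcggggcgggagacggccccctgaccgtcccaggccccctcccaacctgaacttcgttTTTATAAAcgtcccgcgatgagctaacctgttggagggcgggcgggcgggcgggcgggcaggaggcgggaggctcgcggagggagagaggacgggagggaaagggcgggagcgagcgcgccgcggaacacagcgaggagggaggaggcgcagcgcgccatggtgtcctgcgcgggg
Hoxd9: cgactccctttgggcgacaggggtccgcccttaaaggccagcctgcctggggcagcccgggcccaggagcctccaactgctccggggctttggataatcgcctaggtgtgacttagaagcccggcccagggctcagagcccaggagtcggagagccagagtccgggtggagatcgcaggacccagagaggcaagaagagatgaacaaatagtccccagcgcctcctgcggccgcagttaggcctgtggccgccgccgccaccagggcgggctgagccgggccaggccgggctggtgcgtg
Hoxd8: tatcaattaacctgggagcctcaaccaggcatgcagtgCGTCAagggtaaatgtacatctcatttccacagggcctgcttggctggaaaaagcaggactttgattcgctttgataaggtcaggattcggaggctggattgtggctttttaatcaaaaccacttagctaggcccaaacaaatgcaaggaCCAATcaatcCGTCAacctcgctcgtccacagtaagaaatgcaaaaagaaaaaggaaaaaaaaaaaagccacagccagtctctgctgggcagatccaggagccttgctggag
Hoxd4: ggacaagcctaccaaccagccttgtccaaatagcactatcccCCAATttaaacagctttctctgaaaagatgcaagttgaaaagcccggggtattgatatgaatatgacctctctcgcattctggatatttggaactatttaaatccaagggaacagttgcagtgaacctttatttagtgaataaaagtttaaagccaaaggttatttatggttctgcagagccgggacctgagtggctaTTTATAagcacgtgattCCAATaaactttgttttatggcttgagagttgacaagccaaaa
Hoxa2: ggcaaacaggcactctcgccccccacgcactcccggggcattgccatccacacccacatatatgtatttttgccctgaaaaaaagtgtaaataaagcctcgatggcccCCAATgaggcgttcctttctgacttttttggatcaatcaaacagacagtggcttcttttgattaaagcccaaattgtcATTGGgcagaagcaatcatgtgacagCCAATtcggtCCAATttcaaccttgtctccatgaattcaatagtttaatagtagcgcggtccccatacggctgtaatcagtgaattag
The 5 sequences differ: Hoxd13 has 74.3% G and C and 37 CpG, while Hoxd4 has 39.7% and 4 CpG. Hoxd9 holds none of the 3 motifs. Hoxd13 holds CCAAT at 1 place and 2 overlapping matches of TATAAA, on opposite strands of 1 marked stretch. Hoxd8 holds TGACG at 2 places and CCAAT at 1, Hoxd4 CCAAT at 2 and TATAAA at 1, and Hoxa2 CCAAT at 4. CCAAT was found in 60.9% of the Hox promoters, against 37.4% of all 32851 promoters. TGACG was found in 26.1% of Hox promoters, against 20.8% of all, and TATAAA in 17.4%, against 13.6% of all. The full CRE palindrome TGACGTCA was in no Hox promoter and in 1.79% of all. A match describes these letters only.

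In cluster A the direction changed along the cluster. Hoxa2, which sets the identity of the second pharyngeal arch, read 4.02, 3.70 and 3.42 log2 in the ethanol dishes of dKO lines 1, 5 and 6, against 4.13, 4.62 and 4.34 in those of wild-type lines 3, 4 and 5. In DP it read 3.48, 3.59 and 3.59 in dKO dishes, against 3.94, 4.18 and 4.02 in wild-type dishes. The groups did not overlap within either treatment, and the differences were −0.65 ± 0.15 log2 in ethanol (adjusted p = 0.00501, limma) and −0.50 in DP (adjusted p = 0.0231). The DP call was lost without dKO line 1, 5 or 6 (adjusted p = 0.0737, 0.0502 and 0.0503) or without wild-type line 4 or 5 (0.0902 and 0.0534). Hoxa3, needed for thymus and parathyroid, read 5.07, 5.16 and 5.08 in dKO ethanol dishes and 5.74, 5.50 and 5.68 in wild-type ethanol dishes. Its DP values were 5.10, 5.14 and 5.12 in dKO dishes and 5.46, 5.79 and 5.71 in wild-type dishes. No dKO array reached the lowest wild-type array, and the difference was −0.53 ± 0.10 log2 in both treatments (adjusted p = 0.00121 in ethanol and 0.00123 in DP, limma). A probe set of similar brightness gave −0.35 in ethanol (adjusted p = 0.0825) and −0.46 in DP (adjusted p = 0.0252), and 2 dim ones gave −0.02 and −0.02 in ethanol, and 0.05 and 0.19 in DP. The mean of its 4 probe sets was not called in DP (adjusted p = 0.0835, limma).

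Hoxa5, which acts in the lung and the cervicothoracic skeleton, went the other way. It read 7.88, 8.09 and 7.96 log2 in dKO ethanol dishes, against 7.05, 7.40 and 7.12 in wild-type ethanol dishes. Under DP the values were 7.94, 7.96 and 7.80 in dKO dishes and 7.01, 7.25 and 7.16 in wild-type dishes. The 6 arrays of each genotype did not overlap, with a difference of 0.78 ± 0.11 log2 in ethanol (adjusted p = 0.000125, limma) and 0.76 in DP (adjusted p = 0.000158). Hoxa4, another gene of the neck region, was higher in dKO ethanol dishes, at 4.51, 4.28 and 4.09, against 3.96, 3.78 and 3.83 in wild-type ethanol dishes. That is a difference of 0.43 ± 0.14 log2 (adjusted p = 0.0257, limma), and in DP it was 0.30 (adjusted p = 0.116). The Hoxa4 call was lost without dKO line 1 or 5 (adjusted p = 0.0881 and 0.0547), without wild-type line 4 or 5 (0.0801 and 0.0578), with array weights (0.0665) and with median centring (0.0771). Without both deviating arrays its adjusted p was 0.135.

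Hoxa11, which acts with Hoxd11 in the forearm and in the kidney, was lower in dKO MEFs. In ethanol it read 5.84, 5.05 and 5.53 log2 in dKO dishes and 6.34, 5.72 and 6.26 in wild-type dishes, and the groups overlapped. In DP the dKO dishes lay close together at 5.24, 5.26 and 5.30, against 6.33, 6.48 and 6.89 in wild-type dishes. The difference was −0.64 ± 0.21 log2 in ethanol (adjusted p = 0.0315, limma) and −1.30 in DP (adjusted p = 0.000302). The ethanol call was lost without dKO line 5 or 6 (adjusted p = 0.135 and 0.0624), without wild-type line 3 or 5 (0.118 and 0.0926), and when only the arrays compared were fitted (0.0896). Hoxa10, a gene of lumbar identity and the uterus, passed in DP only. Its DP values were 6.52, 6.39 and 6.56 in dKO dishes and 6.73, 6.84 and 7.09 in wild-type dishes, a difference of −0.39 ± 0.13 log2 (adjusted p = 0.0328, limma). In ethanol it differed by −0.31 (adjusted p = 0.0863). Its DP call was lost without dKO line 1, 5 or 6 (adjusted p = 0.067, 0.109 and 0.0521), without wild-type line 4 or 5 (0.0621 and 0.143), and with median centring (0.0979). Hoxa7 (0.19 and 0.03 log2), among the brightest of the cluster, Hoxa9 (0.36 and 0.12) and Hoxa13 (0.21 and 0.06) did not pass in ethanol or DP.

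In cluster B Hoxb2, Hoxb3 and Hoxb8 were lower and Hoxb9 higher in dKO ethanol dishes. Hoxb2, which acts in the hindbrain, read 7.15, 6.88 and 6.52 log2 in the ethanol dishes of dKO lines 1, 5 and 6, against 7.46, 7.69 and 7.76 in those of wild-type lines 3, 4 and 5. In DP it read 6.59, 6.63 and 6.02 in dKO dishes and 7.01, 7.22 and 7.09 in wild-type dishes. Groups were apart within each treatment, and the difference was −0.79 ± 0.18 log2 in ethanol (adjusted p = 0.00413, limma) and −0.695 in DP (adjusted p = 0.00884). Hoxb3, which acts with its group 3 paralogs, read 7.38, 7.67 and 7.18 in dKO ethanol dishes and 7.97, 8.17 and 7.90 in wild-type ethanol dishes. It was lower by −0.61 ± 0.16 log2 in ethanol (adjusted p = 0.00929, limma) and differed by −0.41 in DP (adjusted p = 0.0602), and its other probe set gave −0.34 in ethanol (adjusted p = 0.145) and passed in DP at −0.46 (adjusted p = 0.0469). Hoxb8 read 4.52, 4.30 and 4.14 in dKO ethanol dishes and 4.42, 4.94 and 5.21 in wild-type ethanol dishes, where the groups overlapped. Its ethanol difference was −0.54 ± 0.18 log2 (adjusted p = 0.032, limma), and in DP −0.45 (adjusted p = 0.0633). That ethanol call was lost without dKO line 5 or 6 (adjusted p = 0.0742 and 0.124), without wild-type line 4 or 5 (0.0916 and 0.127), without both deviating arrays (0.053) and with only the arrays compared (0.1).

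Hoxb9, a posterior gene of thoracic patterning, read 8.31, 8.04 and 8.08 log2 in dKO ethanol dishes, against 7.12, 7.33 and 7.26 in wild-type ethanol dishes. In DP its values were 8.21, 8.17 and 7.93 in dKO dishes and 7.41, 7.74 and 7.50 in wild-type dishes. All 6 dKO arrays lay above all 6 wild-type arrays, by 0.90 ± 0.12 log2 in ethanol (adjusted p = 7.13e-05, limma) and 0.56 in DP (adjusted p = 0.0028). The other 6 genes of the cluster, Hoxb1, Hoxb4, Hoxb5, Hoxb6, Hoxb7 and Hoxb13, did not pass in either treatment. They differed by −0.30 to 0.04 log2 in ethanol and by −0.37 to 0.21 in DP.

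In cluster C the 3 genes called in ethanol were the 3 called in DP, and all were lower in dKO MEFs. Hoxc8, which patterns the ribs and motor neurons of the thorax and forelimb level, read 7.52, 8.17 and 7.68 log2 in the ethanol dishes of dKO lines 1, 5 and 6. Wild-type lines 3, 4 and 5 read 8.85, 9.07 and 8.52 in ethanol. In DP it read 7.86, 7.95 and 7.67 in dKO dishes, against 8.57, 8.86 and 8.74 in wild-type dishes. The genotypes did not overlap, at −1.02 ± 0.17 log2 in ethanol (adjusted p = 0.000468, limma) and −0.90 in DP (adjusted p = 0.00126). Hoxc9, its posterior neighbour, read 7.15, 7.10 and 6.92 in dKO ethanol dishes, against 7.40, 7.66 and 7.43 in wild-type ethanol dishes. In DP it was 6.81, 6.68 and 6.40 in dKO dishes and 7.15, 7.52 and 7.002 in wild-type dishes. It was lower by −0.44 ± 0.15 log2 in ethanol (adjusted p = 0.0349, limma) and −0.59 in DP (adjusted p = 0.00654), and the ethanol call was lost without dKO line 5 or 6 (0.0594 and 0.132) or wild-type line 4 (0.128). Hoxc5 read 4.40, 3.85 and 4.11 in dKO ethanol dishes, against 4.43, 4.62 and 4.89 in wild-type ethanol dishes. Its DP values were 4.02, 3.99 and 3.89 in dKO dishes and 4.33, 4.54 and 4.57 in wild-type dishes. The groups were apart in both treatments, at −0.53 ± 0.15 log2 in ethanol (adjusted p = 0.0137, limma) and −0.51 in DP (adjusted p = 0.0155). The Hoxc5 call was lost in ethanol without dKO line 5 (adjusted p = 0.0622), without wild-type line 5 (0.0557) and with only the arrays compared (0.0646). In DP it was lost without dKO line 6 (0.0557) or wild-type line 4 or 5 (0.0544 and 0.0591), and a probe set of equal brightness gave −0.35 and −0.43, not called. Hoxc4, Hoxc10 and Hoxc13 did not pass, with differences of −0.05 to 0.09 log2 in ethanol and −0.11 to 0.06 in DP.

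**Figure D2:**
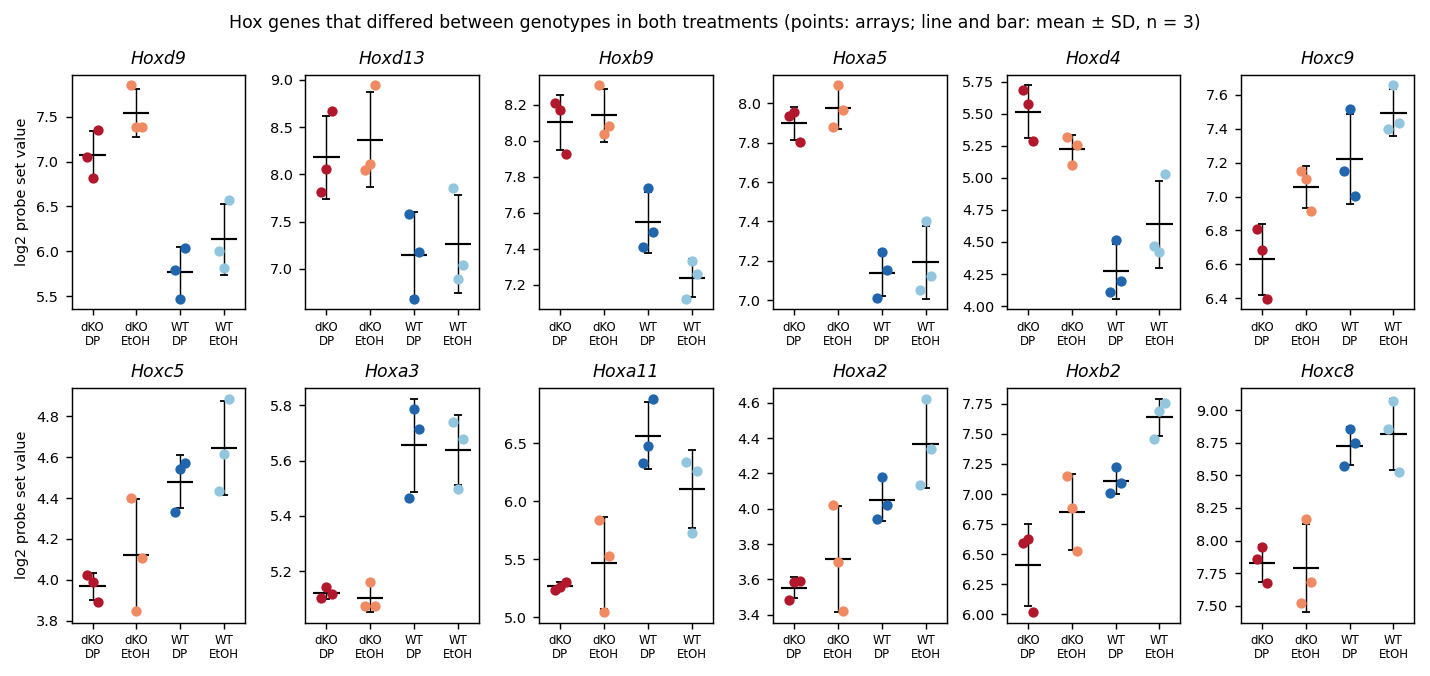
Log2 value of each array (points) with mean ± SD of 3 arrays (line and bar) for the 12 Hox genes called in both treatments, in dKO DP, dKO ethanol (EtOH), wild-type (WT) DP and wild-type ethanol arrays; vertical axes differ between panels and do not start at 0. Hoxd9, Hoxb9, Hoxa5 and Hoxd4 have all dKO points above all wild-type points, and Hoxa3 and Hoxc8 all dKO points below them.

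Under DP, 14 of 34 Hox genes (41.2%) differed between genotypes, against 35.4% of all genes. In dKO DP dishes 5 rose (Hoxa5, Hoxb9, Hoxd4, Hoxd9 and Hoxd13), where 18.5% of all genes rose, and 9 fell (Hoxa2, Hoxa3, Hoxa10, Hoxa11, Hoxb2, Hoxc5, Hoxc8, Hoxc9 and Hoxd12), where 16.9% of all genes fell. Without the DP array of dKO line 6, or without that of wild-type line 4, 9 members were called. At an unadjusted p under 0.05 there were 18 members (52.9%), against 43.2% of all genes. Without the DP array of dKO line 5, Hoxa4, Hoxb3 and Hoxb8 passed (adjusted p = 0.0276, 0.0344 and 0.0465, limma), and without that of wild-type line 5 Hoxd8 passed (0.042). Across the other settings Hoxb3, Hoxb8 and Hoxd8 passed in several and Hoxd3 in 2. In both treatments 12 members (35.3%) were called in 1 direction, 5 higher and 7 lower, against 27.5% of all genes, and the arrays of both treatments come from the same 6 lines. Over all 6 dKO and 6 wild-type arrays, 6 members (17.6%) did not overlap, against 25.6% of all genes. Of these 4 were higher, where 14.2% of all genes were, and 2 lower, where 11.4% were.

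No Hox gene passed the test for a DP response in either genotype. In dKO MEFs 0 members were called by limma, against 1.5% of all genes, and 6 (17.6%) had an unadjusted p under 0.05, against 14.1% of all genes. Array weights called 3: Hoxa9 (−0.83 log2, adjusted p = 0.00326), Hoxa10 (−0.46, adjusted p = 0.0147) and Hoxb1 (0.30, adjusted p = 0.0315). In wild-type MEFs none was called, against 4.73% of all genes, and 5 (14.7%) had an unadjusted p under 0.05, against 15.2%. With the MEF line as a block 1 member passed in wild type, Hoxb2 (−0.53 log2, adjusted p = 0.0213), which also passed when only the arrays compared were fitted (adjusted p = 0.0405). Hoxb2 was lower with DP in all 3 lines of each genotype, with means of 6.41 ± 0.34 log2 in dKO DP dishes, against 6.85 ± 0.31 in dKO ethanol dishes, and 7.11 ± 0.11 in wild-type DP dishes, against 7.64 ± 0.16 in wild-type ethanol dishes. Changes of single members ran from −0.50 to 0.29 log2 in dKO MEFs and from −0.53 to 0.46 in wild-type MEFs, with standard errors of 0.10 to 0.32.

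The difference between the DP responses was called for no member by limma, against 0.562% of all genes. At an unadjusted p under 0.05 there were 2 (5.88%), against 5.92% of all genes: Hoxa11 with −0.66 ± 0.29 log2 (adjusted p = 0.809) and Hoxd4 with 0.66 ± 0.24 (adjusted p = 0.602). Hoxa11 differed between DP and ethanol by −0.20 in dKO and 0.46 in wild-type MEFs, and Hoxd4 by 0.29 in dKO and −0.37 in wild-type MEFs. The posterior genes were below 0 in 14 of 14 cases for DP minus ethanol in dKO MEFs (11 with cyclic loess, 13 with median centring, 13 without the 2 deviating arrays, 11 to 13 with 1 array left out), with a median of −0.21 log2 beside −0.05 for all genes. In wild-type MEFs 8 of 14 were below 0, as were 12 of 13 central and 6 of 7 anterior genes. Over all members 27 of 34 were below 0 in dKO and 26 of 34 in wild-type MEFs. The share of all genes below 0 was not computed. Among the posterior genes Hoxb13 and Hoxd12 were near the blank controls in both dKO groups. The difference of responses was below 0 for 14 of 14 posterior genes (14 with cyclic loess, 11 with median centring, 13 without the 2 deviating arrays, 12 to 14 with 1 array left out), with a median of −0.17 beside −0.02 for all genes. Both counts of posterior genes rest on the same dKO arrays, and none of these single differences was called.

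**Figure D3:**
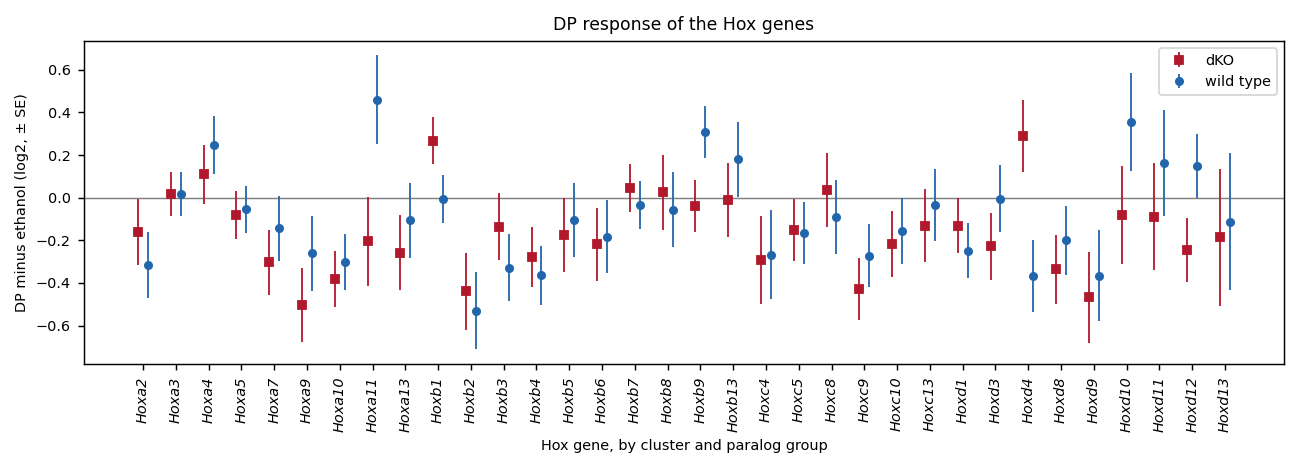
DP minus ethanol, in log2 (± SE from limma), for each measured Hox gene in dKO (squares) and wild-type MEFs (circles), ordered by cluster and paralog group. Points lie between −0.53 and 0.46, and the largest gaps between the genotypes are those of Hoxa11 and Hoxd4.

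The MEF lines of 1 genotype were also compared. For each line the DP and the ethanol dish gave 2 values, and limma's F test compared the 3 lines against the spread between dishes. Within dKO no Hox gene passed the adjusted threshold, against 0.0468% of all genes, but 13 of 34 (38.2%) had an unadjusted p under 0.05, against 7.09% of all genes. Within wild type none passed, against 0.0936% of all genes, and 8 of 34 (23.5%) had an unadjusted p under 0.05, against 6.27%. The range of the 3 line means had a median of 0.34 log2 over the dKO lines and 0.33 over the wild-type lines, beside 0.20 and 0.19 for all genes.

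Among the dKO lines, line 6 differed from both others in several members, none of them past the adjusted threshold. Hoxd13 read 8.67 (DP) and 8.94 log2 (ethanol) in line 6, against 7.82 and 8.04 in line 1 and 8.05 and 8.10 in line 5. Hoxd11 read 4.28 and 4.29 in line 6, against 3.53 and 3.59 in line 1 and 3.35 and 3.55 in line 5. Hoxd10 was 6.61 and 6.82 in line 6, against 6.06 and 6.14 in line 1 and 6.12 and 6.08 in line 5. In all 3 genes both dishes of line 6 lay above the 4 dishes of the other lines, as in 4.18% of all genes. These genes were near the threshold at most, with adjusted p = 0.0836 for Hoxd13, 0.0715 for Hoxd11 and 0.27 for Hoxd10 (limma). Array weights and the fit without the 2 deviating arrays each called 2, Hoxd11 and Hoxd13. Without the DP array of dKO line 1, 3 were called: Hoxc4, Hoxd11 and Hoxd13 (adjusted p = 0.0276, 0.0276 and 0.0394).

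Line 6 had the lowest line mean in 19 of 34 members, against 31.9% of all genes, and both its dishes were below the other lines in 9 members, against 6.65% of all genes: Hoxa7, Hoxb2, Hoxb3, Hoxb5, Hoxb6, Hoxb13, Hoxc4, Hoxc10 and Hoxc13. Hoxb2 read 6.02 (DP) and 6.52 log2 (ethanol) there, against 6.59 and 7.15 in line 1 and 6.63 and 6.88 in line 5. Hoxc4 read 6.46 and 6.47 in line 6, against 6.83 and 7.52 in line 1 and 6.86 and 7.03 in line 5. None of these was called in the fit of all arrays (adjusted p = 0.272 for Hoxb2 and 0.335 for Hoxc4, limma). Tbx4, a factor of the hindlimb bud and lung mesenchyme, was also highest in line 6, at 7.87 and 7.81 log2, against 7.11 and 7.23 in line 1 and 6.89 and 6.94 in line 5 (adjusted p = 0.0575). The hindlimb factor Pitx1 read 5.00 and 5.13 in line 6, against 4.72 and 5.00 in line 1 and 4.71 and 5.04 in line 5, and did not pass (adjusted p = 0.794, limma). Line 6 also had the lowest summed fibroblast markers, 13.8 log2 in both dishes, against 14.1 in both dishes of lines 1 and 5 (14.2 in the DP dish of line 5). Their part in the line differences was not tested.

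Among the wild-type lines, Hoxd13 was again the member with the widest range, 0.93 log2. It read 7.58 (DP) and 7.85 log2 (ethanol) in line 3, 6.68 and 6.90 in line 4, and 7.18 and 7.04 in line 5 (adjusted p = 0.118, limma), and array weights called it (adjusted p = 0.0153). Both dishes of line 3 were highest for Hoxd11, Hoxd12 and Hoxd13, and for Hoxb1, which was near the blank controls as Hoxd12 was. Line 3 also had the lowest line mean in 18 of 34 members, but the share of all genes with their lowest mean in line 3 was not computed. Both dishes of line 3 lay below the other wild-type lines for Hoxa5, Hoxb6, Hoxc5 and Hoxc10. Line 5 was highest, with both dishes apart, for Hoxd8 (6.93 and 7.27 log2) and Hoxd9 (6.03 and 6.58), although its ethanol array is one of the deviating arrays. Both dishes of line 4 lay below the other lines for Hoxd3, Hoxd10 and Hoxd13 and above them for Hoxa5, Hoxa7, Hoxc8 and Hoxc9. Both dishes of line 5 lay below the other lines for Hoxb1 and Hoxb5. The shares of all genes with a wild-type line apart in this way were not computed, so these lists stand without a background. Summed macrophage markers were 7.98 and 7.76 log2 in line 3, against 9.002 and 9.01 in line 4 and 9.08 and 9.34 in line 5, and their part in the line differences was not tested. The genotype difference of Hoxd13, 1.103 log2 in ethanol, was close in size to the ranges of its line means, 0.88 in dKO and 0.93 in wild type, while that of Hoxd9, 1.41, was larger than its ranges of 0.35 in dKO and 0.66 in wild type.

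**Figure D4:**
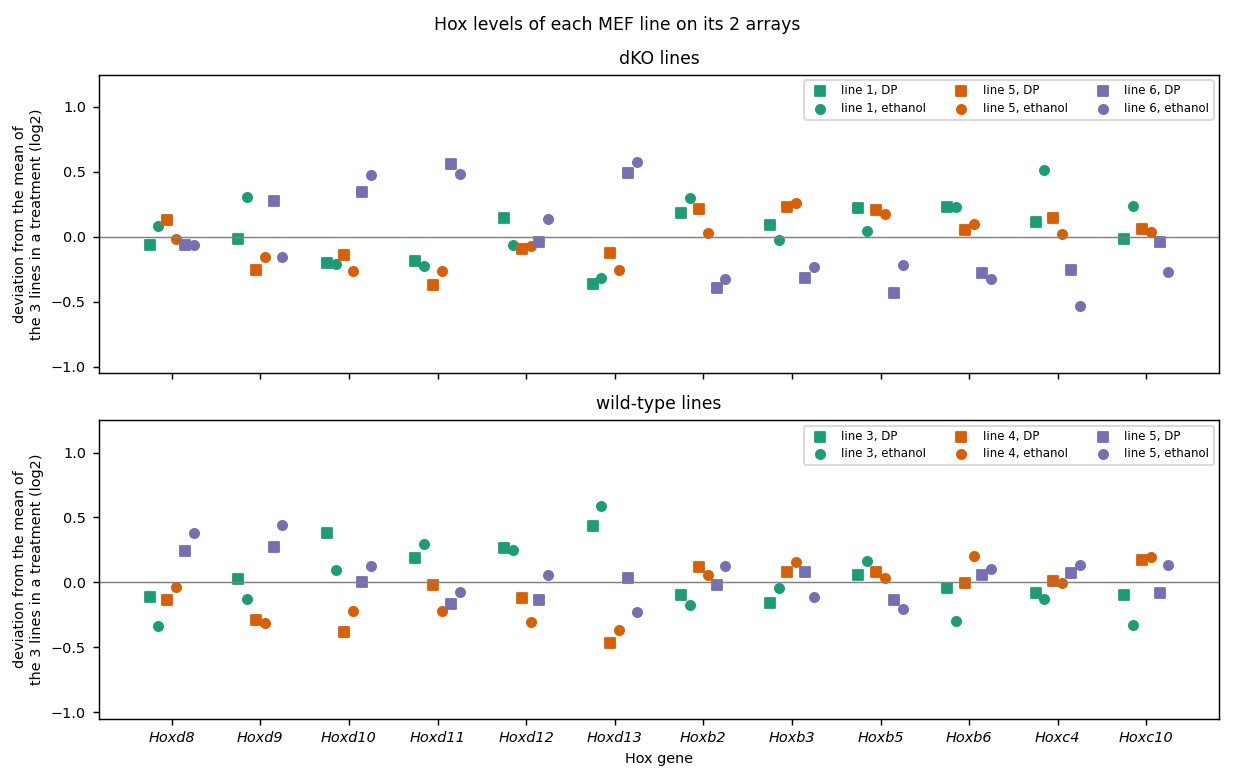
Log2 value of each dish as its deviation from the mean of the 3 lines of its genotype in the same treatment, for 12 Hox genes, with dKO lines in the upper and wild-type lines in the lower panel, DP as squares and ethanol as circles, coloured by line. Both dishes of dKO line 6 lie above 0 for Hoxd10, Hoxd11 and Hoxd13. They lie below 0 for Hoxb2, Hoxb3, Hoxb5, Hoxb6, Hoxc4 and Hoxc10. The cluster B and C genes shown are all among those in which both dishes of dKO line 6 were lowest, so they do not stand for their whole clusters. Both dishes of wild-type line 3 lie above 0 for Hoxd13.

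Some genes that work with or upstream of the Hox genes also differed between genotypes. Of 8 measured TALE cofactors, homeodomain proteins that bind DNA with Hox proteins, 2 rose and 2 fell in dKO ethanol dishes. Meis1 averaged 6.85 ± 0.26 log2 in dKO and 7.79 ± 0.22 in wild-type ethanol dishes, a difference of −0.94 (adjusted p = 0.000718, limma), and Pknox2, another cofactor, differed by −1.08 (adjusted p = 5.23e-05). Pbx3 rose by 0.67 (adjusted p = 0.000308) and Pbx2 by 0.40 (adjusted p = 0.0331). Meis2 differed by −0.10 in ethanol (adjusted p = 0.737) but by −0.61 in DP (adjusted p = 0.025, limma). With DP, Meis2 rose by 0.79 in wild-type MEFs (adjusted p = 0.0314, limma) and was not called in dKO MEFs, at 0.28 (adjusted p = 0.508). Of 19 measured genes of retinoic acid signalling and Cdx factors, which set Hox expression along the axis, 6 fell and none rose. Among them the retinoic acid binding proteins Crabp1 and Crabp2 differed by −2.63 and −2.59 log2, and the retinal reductase Dhrs3 by −1.12 (adjusted p = 4.62e-06, 1.97e-08 and 0.000653, limma). The background here is 19.5% of all genes higher and 14.1% lower.

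Some regulators of Hox chromatin were higher in dKO ethanol dishes, beside 19.5% of all genes higher and 14.1% lower. Of 27 measured Polycomb genes 11 rose and none fell in dKO ethanol dishes, with a median difference of 0.30 log2 beside −0.01 for all genes. Cbx7, a chromodomain subunit of Polycomb complex 1, rose by 1.57, Ezh1, a histone methyltransferase, by 0.97, and Bmi1 by 0.82 (adjusted p = 5.12e-06, 3.36e-05 and 0.0397, limma). In DP 10 rose and 2 fell. Of 16 measured Trithorax and related genes 9 rose and none fell in ethanol, with a median of 0.38, among them Mllt3 (1.00), Kmt2c (0.95) and Bptf (0.69). Of 7 measured acetyltransferases 2 rose, Kat2b by 1.65 and Kat6a by 0.62, and Crebbp fell.

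Some other genes of body position also differed between genotypes, beside 19.5% of all genes higher and 14.1% lower. Of 32 measured factors of limb and trunk mesenchyme 2 rose and 15 fell in ethanol, with a median of −0.36 log2. The mesenchymal homeobox genes Prrx2 and Prrx1 differed by −2.66 and −2.16 (adjusted p = 5.82e-06 and 3.66e-06, limma), and Hic1, a transcriptional repressor, by −1.37. Tbx5, a forelimb factor, differed by −0.45 in ethanol (adjusted p = 0.0211, limma) and Pitx1 by −0.47 (adjusted p = 0.00553). In DP Tbx5 differed by −0.10 and was not called (adjusted p = 0.61, limma), while Pitx1 differed by −0.39 (adjusted p = 0.017). Tbx4 was higher by 0.72 in ethanol (adjusted p = 0.0314) but differed by −0.21 in DP (adjusted p = 0.553). Of 16 measured factors of craniofacial mesenchyme, which normally lacks Hox expression, 1 fell, Lhx8 (−0.55 log2), and none rose. However, Dlx4, Dlx5, Alx4, Lhx6, Otx1 and Otx2 were near the blank controls in all 4 groups, where a change is understated. The low count therefore cannot be set against the shares over all genes. Lhx8 averaged 3.25 log2 in dKO ethanol dishes, near the blank controls, and 3.80 in wild-type ethanol dishes. Of 27 measured genes from the regions around the Hox clusters 8 rose and 4 fell, beside the same 19.5% and 14.1% of all genes. Jazf1 in the region of cluster A was higher by 1.68, Chn1 in that of cluster D by 1.55 and Snx10 in that of cluster A by 0.93. Their distances from the clusters were not measured. Evx1, Evx2 and Mtx2 were not called in ethanol (adjusted p = 0.154, 0.0851 and 0.227, limma), with Evx1 and Evx2 near the blank controls in all 4 groups. Of 5 measured noncoding transcripts of the clusters Hoxaas2 was called, at 0.56 log2 in ethanol (adjusted p = 0.0105, limma) and −0.01 in DP, on a probe set whose wild-type ethanol mean of 3.37 ± 0.16 was near the blank controls.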

How the data were processed

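RNA of 12 dishes, 3 per group, was hybridised to Affymetrix 3′ expression arrays. The authors deposited log2 values. Per the submitters' processing notes they came from Expression Console 1.1 and RMA, so background correction and normalization between arrays were done before deposit; scanned intensities were not used here. Of 45141 probe sets, 28898 had exactly 1 gene symbol, and 551 with several and 15588 with none were left out. The brightest of a gene's probe sets over 12 arrays stood for each of 17097 genes. RMA values of different probe sets do not compare levels between genes.

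Tests used limma 3.58.1 in R 4.3.3 (lmFit, eBayes; a mean for each group, all 12 arrays in 1 fit, no block), fitted on all genes, with Benjamini-Hochberg adjusted p called under 0.05. Lines were compared with a moderated F test in a fit with 1 mean per line and 1 DP effect per genotype. The procedure was tested on simulated data. Summaries and figures used Python 3.11.15. A group mean no higher than the level below which 95% of the 17 blank controls lay was called near the blank controls. Marker sums add values on the linear scale and are given as log2. The number of arrays limits the precision.

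Hox genes called in any contrast were named with array values, the 3 brightest of a cluster were named too, and the rest given by range and count. Other lists had their 3 called members of largest genotype difference in ethanol named, beside Crebbp, Ep300, Xist, Eif2s3y, Tbx5, Tbx4, Pitx1, Meis1 and Meis2; marker lists are given by counts. Lists were TALE cofactors, cluster neighbours, noncoding transcripts, limb and trunk, craniofacial, Polycomb, Trithorax, retinoic acid and Cdx, acetyltransferases, sex-linked genes and markers of 8 cell types. The members, lists and tests were chosen with earlier results of these data known. That replicates pair across treatments is taken from the labels (a line gave a DP and an ethanol dish); across 8917 genes, a line's 2 deviations from its group means had r of 0.04 (line 1), 0.32 (line 5) and 0.36 (line 6) for dKO, and 0.42 (line 3), 0.06 (line 4) and 0.33 (line 5) for wild type. Alternatives were the line as a block, an intensity trend, array weights, cyclic loess, median centring, a filter on the dimmest 40% of genes, means of all or single other probe sets, only the arrays compared, and leaving out arrays.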

Additional observations from a re-analysis of the deposited data

How the results depend on the processing

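The count of Hox genes called between genotypes moved by less than 1.5 times under every alternative with all arrays, 12 to 21 in ethanol and 12 to 17 in DP. Leaving out each array gave 10 to 15 in ethanol, with 10 without the array of wild-type line 4, and 9 to 14 in DP, with 9 without dKO line 6 or wild-type line 4. Of the calls, 8 of 16 in ethanol (Hoxa2, Hoxa3, Hoxa5, Hoxb2, Hoxb3, Hoxb9, Hoxc8 and Hoxd9) and 8 of 14 in DP (Hoxa5, Hoxa11, Hoxb2, Hoxb9, Hoxc8, Hoxc9, Hoxd4 and Hoxd9) passed in every setting that tested the gene's own probe set or mean of probe sets. With the replicate block for MEF line, 16 and 14 Hox genes were called between genotypes in ethanol and DP, 0 for DP in dKO, 0 for the difference of DP responses and 1 for DP in wild type. Beside 0 in the analysis of all arrays, array weights called 3 for DP in dKO, 2 among dKO lines and 1 among wild-type lines; the fit of only the arrays compared called 1 for DP in wild type; and the fit without the 2 deviating arrays called 2 among dKO lines. Leaving out each array gave 0 to 3 among dKO lines, with 3 without the DP array of dKO line 1, and 0 elsewhere. Hoxa3 in DP turned to 0.0475 and 0.186 on its 2 dim probe sets. Of the recomputed values of single genes 639 kept direction and side of the threshold, 70 lost the call, 43 gained one and 2 reversed. The cause of these changes was not tested. Dim genes such as Hoxb1, Hoxd1 and Hoxd12 are limited by signal over background.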
